A study of Mus musculus with 3 samples.

Results

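The adult globin genes of the mouse are the alpha-globin genes Hba-a1 and Hba-a2 and the beta-globin genes Hbb-bs and Hbb-bt. They were taken by symbol from a table of expression levels of the mandibular condyle, the cartilage-capped bony head of the lower jaw, and were 4 of its 26970 genes. RNA was sequenced from condyles of 4-month-old wild-type mice (WT), of mice with 1 disrupted copy of Dspp (Dspp+/-) and of mice with both copies disrupted (Dspp-/-). The knockout is a global one kept on a C57BL/6 background, so that every tissue of the mutant animals carries it, and the condyles were dissected with the border between cartilage and the bone beneath it intact. Each genotype had 1 library. Condyles of 3 animals were pooled for the WT and Dspp+/- libraries, and the number of animals behind the Dspp-/- library is not given in the sources used here. The targeted gene itself was not analysed here.

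Hemoglobin, the oxygen carrier of red blood cells, is built from alpha-type and beta-type globin chains in equal numbers, each holding a heme group. Erythroid precursors transcribe the alpha cluster and the beta cluster from separate chromosomes and accumulate these messages to very high levels, and reticulocytes still carry them after the nucleus is lost. Adult erythropoiesis takes place in marrow, which fills the spaces of the bone under the condylar cartilage, and blood in the vessels of a dissected tissue also brings globin RNA. Skeletal muscle makes its own oxygen-binding globin, myoglobin, from an unrelated position in the genome.

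The alpha genes lie on chromosome 11, forward strand, and the beta genes on chromosome 7, reverse strand. The table places Hba-a1 (ENSMUSG00000069919) at positions 32233511 to 32234465 and Hba-a2 (ENSMUSG00000069917) at 32246489 to 32247298 of chromosome 11. It places Hbb-bs (ENSMUSG00000052305) at 103475741 to 103477303 and Hbb-bt (ENSMUSG00000073940) at 103461731 to 103463203 of chromosome 7. The build of these positions is not named in the table, and they differ by 50000 bases (chromosome 11) and 350793 bases (chromosome 7) from GENCODE M21 on GRCm38. In that annotation the coding transcript used here has 3 exons for each gene, and each gene overlaps no other gene.

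Sequence sharing between the copies bears on every value given per gene. The coding sequences of Hba-a1 and Hba-a2 were both 426 bases long and differed at 1 position, C381T, counted from 1 at the A of the start codon with the Hba-a1 base first. Those of Hbb-bs and Hbb-bt were both 441 bases long and also differed at 1 position, C417T, with the Hbb-bs base first. Either pair was 99.8% identical. The stretch around each difference is shown because it is the only place in the reading frame where a read can be told to come from one copy; the capital marks the differing base. The alpha lines span coding positions 351 to 411 and the beta lines 387 to 441.
Hba-a1: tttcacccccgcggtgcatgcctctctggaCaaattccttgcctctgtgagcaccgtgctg
Hba-a2: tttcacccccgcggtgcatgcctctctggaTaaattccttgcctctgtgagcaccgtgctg
Hbb-bs: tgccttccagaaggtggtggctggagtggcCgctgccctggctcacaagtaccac
Hbb-bt: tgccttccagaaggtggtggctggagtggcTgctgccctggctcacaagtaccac

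Windows were sought in annotated transcripts only. Of the 100-base windows along the coding transcripts, 339 of 600 (56.5%) in Hba-a1 and 339 of 455 (74.5%) in Hba-a2 occurred unchanged in a transcript of the other alpha gene. For the beta genes, 331 of 529 windows (62.6%) in Hbb-bs and 331 of 604 (54.8%) in Hbb-bt occurred in the other copy. None occurred in a transcript of any gene outside the pair. The annotated Hba-a1 transcript begins 161 bases before its RefSeq start, and that of Hba-a2 only 3 bases before. The genome before the 2 starts is identical over the 117 bases compared. For reads aligned to the genome, the portion of Hba-a1 that is shared is therefore understated. At 150 bases, the length of 1 read, the shared portion was 48.4% and 65.7% for Hba-a1 and Hba-a2 and 58.7% and 50.7% for Hbb-bs and Hbb-bt. How reads that match both copies were assigned is not given in the sources used here, so the split between Hba-a1 and Hba-a2, and between Hbb-bs and Hbb-bt, is uncertain. The sum of each pair is less exposed if such reads were given to either copy. If they were discarded, the sums and the ratio of alpha to beta are exposed as well.

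**Figure D1:**
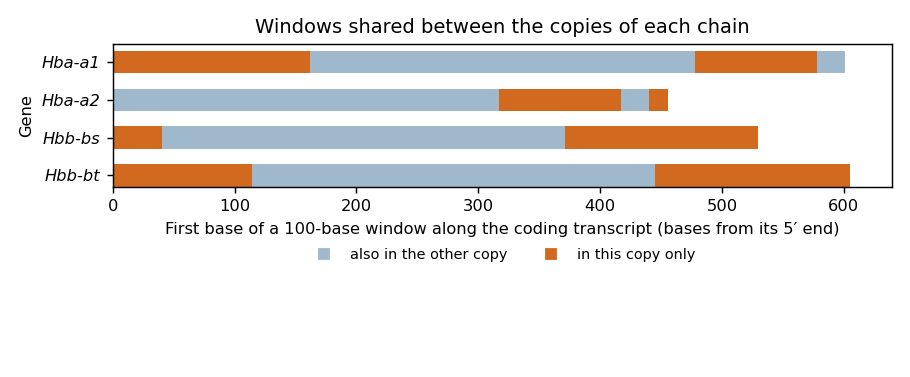
First base of each window along the 4 coding transcripts, in bases from the transcript start. Windows of 100 bases that also occur in a transcript of the other copy are set apart from those found in transcripts of 1 copy only. The windows at the start of Hba-a1 begin in a stretch that the annotated Hba-a2 transcript lacks. Between 54.8% and 74.5% of windows are shared, and the windows of 1 copy lie at the transcript ends and around the single coding difference.

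The proximal promoters are shown because the 4 genes moved together. Each line gives the 120 bases before the RefSeq start on GRCm38.p6, read in the direction of transcription, with the letters CCAAT (or ATTGG, the same on the opposite strand), CACCC and TATAA in capitals. These short motifs are classical elements of globin promoters. The regions are chr11:32283552-32283671 (forward) for Hba-a1, chr11:32296372-32296491 (forward) for Hba-a2, chr7:103827929-103828048 (reverse) for Hbb-bs and chr7:103813924-103814043 (reverse) for Hbb-bt.
Hba-a1: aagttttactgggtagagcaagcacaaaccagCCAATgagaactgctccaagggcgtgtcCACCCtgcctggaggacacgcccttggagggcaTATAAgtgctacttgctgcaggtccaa
Hba-a2: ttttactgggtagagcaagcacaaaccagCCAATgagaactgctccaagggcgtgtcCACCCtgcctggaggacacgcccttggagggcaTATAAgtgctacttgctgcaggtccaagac
Hbb-bs: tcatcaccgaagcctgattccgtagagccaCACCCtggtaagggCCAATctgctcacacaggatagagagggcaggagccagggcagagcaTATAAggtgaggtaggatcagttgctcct
Hbb-bt: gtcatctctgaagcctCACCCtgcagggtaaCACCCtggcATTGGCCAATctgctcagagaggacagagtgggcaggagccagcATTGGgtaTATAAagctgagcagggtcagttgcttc

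All 4 promoters held each of the 3 motifs. Searched on both strands in the same 120 bases, CACCC occurred in 31.7% of 32851 promoters, CCAAT in 21.3% and TATAA in 11.8%, and 226 promoters (0.688%) held all of them. The letters GATAA, found in 10.5% of promoters, occurred in none of the 4 windows. The alpha promoters were identical over 117 of 117 bases when aligned with an offset of 3 bases. The beta promoters matched at 88 of 119 bases (73.9%), and Hba-a1 matched Hbb-bs at 45 of 118 (38.1%). A match of letters is a description of the window and says nothing about binding.

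The libraries held 20241576 (WT), 23613621 (Dspp+/-) and 22253158 (Dspp-/-) fragments, as recovered from the steps between the deposited values. Levels are fragments per kilobase of merged exon, scaled to the library's total (FPKM). Intervals are exact 95% intervals from the fragment numbers. They cover counting error only, and amplified copies of a molecule cannot be told from separate molecules here. With 1 library per genotype there is no measure of the spread between animals or libraries, so no test between genotypes was possible and every fold change compares these libraries, not the genotypes.

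All 4 adult globin genes were higher in both mutant libraries than in WT, by 3.25 to 4.92 times, and the mutant libraries lay close to each other. Hba-a1, the more abundant alpha gene, stood at 395 FPKM in the WT library, at 1577 in Dspp+/- and at 1344 in Dspp-/-. This put it at 3.99 times WT in Dspp+/- (interval 3.88 to 4.10) and 3.40 times in Dspp-/- (3.31 to 3.49). Hba-a2, its near-identical neighbor, stood at 51.6, 168 and 185 FPKM, 3.25 (2.99 to 3.54) and 3.58 (3.30 to 3.90) times WT. The order of the mutant libraries therefore differed between the alpha copies: Hba-a1 was highest in Dspp+/- and Hba-a2 in Dspp-/-.

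Hbb-bs, the major beta gene of these animals, stood at 425 FPKM in the WT library, at 1794 in Dspp+/- and at 1886 in Dspp-/-. These were 4.22 (4.11 to 4.33) and 4.44 (4.32 to 4.56) times WT. Hbb-bt, the minor beta gene, stood at 22.3, 85.1 and 109.9 FPKM, 3.81 (3.37 to 4.32) and 4.92 (4.36 to 5.56) times WT. Both beta genes were lowest in WT and highest in Dspp-/-, and no interval of a mutant level reached the WT interval for any of the 4 genes. More red-cell precursors in a library and more globin RNA per cell cannot be told apart in bulk tissue.

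**Figure D2:**
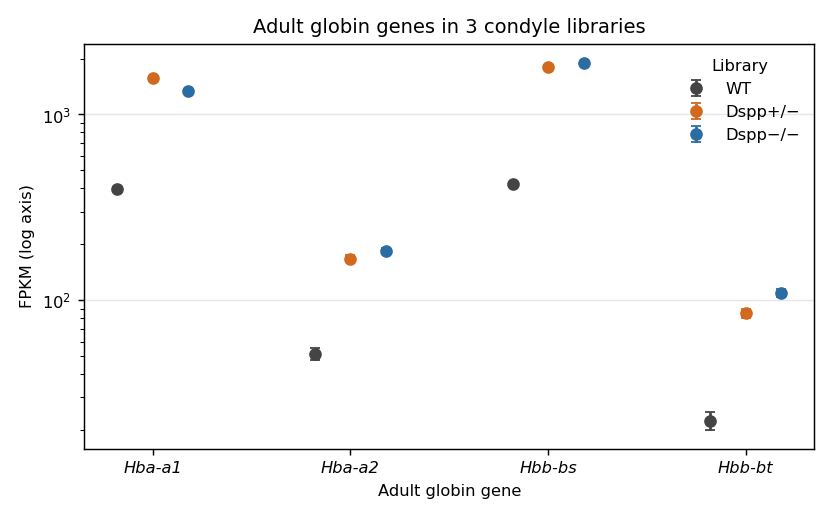
Level of each adult globin gene in FPKM (log axis) in the WT, Dspp+/- and Dspp-/- libraries, 1 point per library with its exact 95% counting interval. WT is lowest for all 4 genes, and Hba-a1 alone is higher in Dspp+/- than in Dspp-/-.

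Behind these levels were 6500, 30244 and 24277 fragments for Hba-a1 in WT, Dspp+/- and Dspp-/- and 697, 2644 and 2745 for Hba-a2. Hbb-bs had 6609, 32528 and 32232 fragments, and Hbb-bt had 318, 1413 and 1719. The least certain value is therefore Hbb-bt in WT, at 22.3 FPKM. Among all genes of the table ranked by level, Hbb-bs was 57th in WT and 12th in either mutant library. Hba-a1 went from rank 61 to ranks 16 (Dspp+/-) and 17 (Dspp-/-), Hba-a2 from 648 to 161 and 132, and Hbb-bt from 1724 to 369 and 245. The 4 genes together took 14124, 66829 and 60973 fragments, or 0.0698% of the WT library, 0.283% of the Dspp+/- library and 0.274% of the Dspp-/- library.

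Genes were compared on log2(FPKM + 1), which understates the change of low genes, if they averaged 1 FPKM or more over the 3 libraries. This left 13026 genes, all 4 members among them. At a limit of 2-fold, 636 genes (4.88%) were higher and 373 (2.86%) lower in Dspp+/- than in WT. In Dspp-/-, 527 (4.05%) were higher and 179 (1.37%) lower. All 4 members were past 2-fold higher in both comparisons, which share the WT library. Their log2 ratios in Dspp+/- were 1.99 for Hba-a1, 1.68 for Hba-a2, 2.07 for Hbb-bs and 1.88 for Hbb-bt, and in Dspp-/- they were 1.76, 1.82, 2.15 and 2.25. The median log2 ratio of all genes compared was 0.058 in Dspp+/- and 0.0070 in Dspp-/-, and 1.57% and 1.17% of genes stood at or above the lowest member.

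Between the mutant libraries, 0.852% of genes were past 2-fold higher and 0.798% lower in Dspp-/-, and none of the 4 globin genes was. Hba-a1 was 0.852 times its Dspp+/- level in Dspp-/- (0.837 to 0.866). The other members were higher in Dspp-/-: Hba-a2 by 1.10 (1.04 to 1.16), Hbb-bs by 1.05 (1.04 to 1.07) and Hbb-bt by 1.29 times (1.20 to 1.39). These intervals leave out 1, but the spread between libraries of 1 genotype is unknown.

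**Figure D3:**
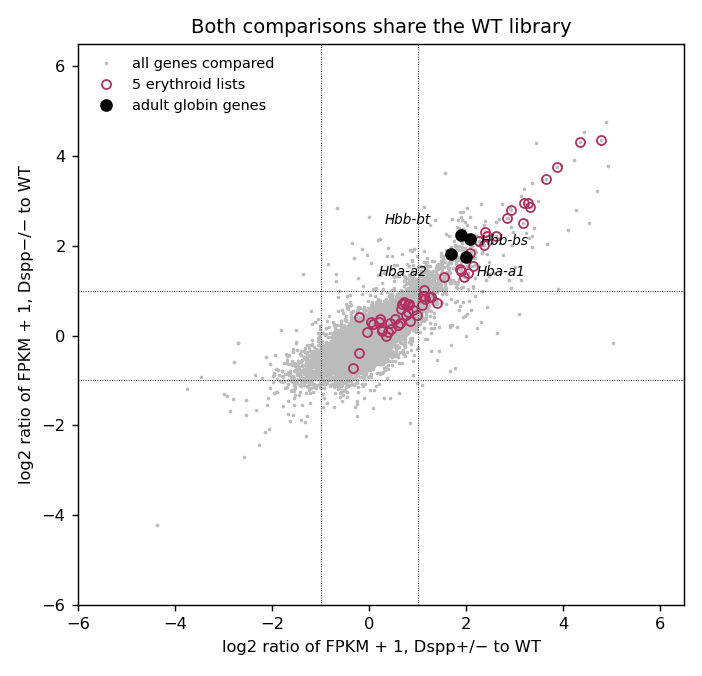
Log2 ratio to WT of FPKM + 1 for each of 13026 genes, with Dspp+/- on the x axis and Dspp-/- on the y axis, which share the WT library. The 4 adult globin genes lie between 1.68 and 2.07 on x and between 1.76 and 2.25 on y, away from the bulk of genes near 0.

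Summed over the alpha genes, the level was 447 FPKM in the WT library, 1745 for Dspp+/- and 1528 for Dspp-/-. Summed over the beta genes it was 447, 1879 and 1996 FPKM. The alpha sum was 3.90 times WT in Dspp+/- (3.80 to 4.00) and 3.42 times in Dspp-/- (3.33 to 3.51), and the beta sum 4.20 (4.09 to 4.31) and 4.46 times (4.35 to 4.58). All 4 genes together went from 895 to 3624 and 3524 FPKM, 4.05 (3.98 to 4.13) and 3.94 (3.87 to 4.01) times WT.

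The balance of alpha to beta RNA, the ratio of these sums, was 0.999 in WT (0.967 to 1.03), 0.929 in Dspp+/- (0.915 to 0.943) and 0.766 in Dspp-/- (0.754 to 0.778). By these FPKM sums alpha and beta were level in WT, and beta exceeded alpha in both mutant libraries, most in Dspp-/-. The steps between libraries were computed from fragments, without gene length. So computed, the balance in Dspp-/- was 0.766 times that in WT (0.738 to 0.795) and 0.821 times that in Dspp+/- (0.803 to 0.840). That in Dspp+/- was 0.933 times that in WT (0.899 to 0.967). The order WT, Dspp+/-, Dspp-/- was also seen within the major copies, Hba-a1 over Hbb-bs, at 0.930, 0.879 and 0.712, and within the minor copies, Hba-a2 over Hbb-bt, at 2.31, 1.97 and 1.68. Between WT and Dspp-/-, the step was 0.766 (0.737 to 0.796) for the major copies and 0.729 (0.628 to 0.845) for the minor copies.

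The value at which alpha and beta appear level depends on the gene length used. The merged exon lengths behind FPKM were 812 bases for Hba-a1, 667 for Hba-a2, 768 for Hbb-bs and 703 for Hbb-bt, and the corresponding RefSeq spliced lengths were 559, 563, 639 and 630. With the RefSeq lengths the balance was 1.19, 1.11 and 0.909 in WT, Dspp+/- and Dspp-/-, and without any length, as a ratio of fragments, it was 1.04, 0.969 and 0.796. The order of the libraries was kept in each, while which chain was in excess in WT and Dspp+/- was not. For the minor copies alpha was in excess in all 3 libraries.

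**Figure D4:**
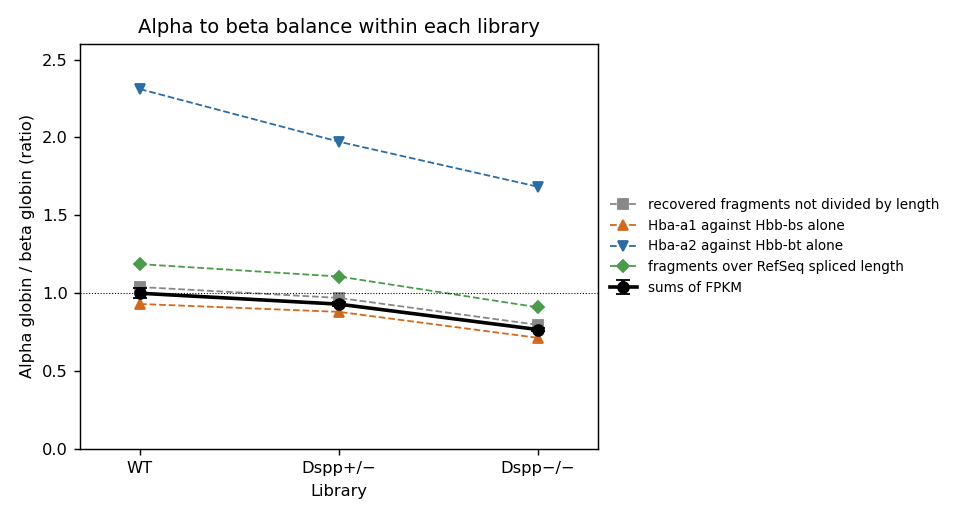
Ratio of alpha to beta globin level in the WT, Dspp+/- and Dspp-/- libraries for the sums of FPKM (black, with exact 95% counting intervals), and without intervals for recovered fragments, for RefSeq lengths, for the major copies and for the minor copies. The ratio is highest in WT and lowest in Dspp-/- in each, going from 0.999 to 0.766 for the sums.

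Within each pair the same copy dominated in every library. Hba-a1 was 7.66, 9.40 and 7.26 times the level of Hba-a2 in WT, Dspp+/- and Dspp-/-, and Hbb-bs was 19.0, 21.1 and 17.2 times that of Hbb-bt. Hba-a2 held 9.68% of alpha fragments in WT (9.01 to 10.4), 8.04% in Dspp+/- (7.75 to 8.34) and 10.2% in Dspp-/- (9.80 to 10.5). Hbb-bt held 4.59% (4.11 to 5.11), 4.16% (3.95 to 4.38) and 5.06% (4.83 to 5.30) of beta fragments. The minor copy of either pair had its smallest share in Dspp+/-. The WT and Dspp-/- intervals overlapped for both pairs, and the WT and Dspp+/- intervals overlapped for the beta pair alone. These shares rest on how the shared windows described above were assigned.

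Among the other globins, Hbq1b, a theta-globin gene of the alpha cluster, stood at 0.204, 3.33 and 3.84 FPKM, from 3, 57 and 62 fragments. It was 16.3 times WT in Dspp+/- (5.30 to 81.3), an interval that shows how little the WT level is known. Its near copy Hbq1a had 1, 0 and 0 fragments. The embryonic beta-type gene Hbb-y had 0, 2 and 0 fragments, all below a floor of 3 fragments set here. That floor equals 0.234 FPKM in WT and 0.213 in Dspp-/- for this gene. Of the 8 embryonic and minor globin genes listed, 3 were in the table, and Hba-x, Hbb-bh0, Hbb-bh1, Hbb-bh2 and Hbb-bh3 had no row under these symbols. Mb, the myoglobin gene of muscle, stood at 1204, 1763 and 944 FPKM and had no step past 2-fold. Cygb, a cytoglobin of fibroblast-like cells, stood at 14.8, 10.8 and 11.2 FPKM and was lower in the mutant libraries than in WT.

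Genes that erythroid cells use beside globin were described by lists, each by its count past 2-fold and its median log2 ratio, next to the 4.88% and 4.05% of all genes higher and the all-gene medians near 0. Over 5 lists with 58 of 60 genes compared, 30 were higher in Dspp+/- and 23 in Dspp-/-, none was lower, and the medians were 1.10 and 0.74. These lists were chosen with results of these libraries known, so their direction is no independent evidence.

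Of the factors of the erythroid program with the erythropoietin receptor, 9 of 10 genes compared were higher in Dspp+/- and 6 in Dspp-/-, with medians of 1.91 and 1.36. Zfpm1, a partner of GATA factors, stood at 6.81, 17.9 and 13.2 FPKM and was past 2-fold in Dspp+/- alone. Lmo2, a bridging protein of the same complexes, stood at 7.78, 17.7 and 13.2 FPKM and was likewise past 2-fold in Dspp+/- alone. Ldb1, which dimerizes them and is widely expressed, was the exception in Dspp+/- and stood at 17.8, 15.2 and 13.3 FPKM.

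Of the red-cell membrane and skeleton genes, 9 of 16 compared were higher in each mutant library, with medians of 1.69 and 1.52. The most abundant of them in WT stayed under 2-fold: Aqp1, a water channel that vessels also express, stood at 235, 284 and 261 FPKM, Tmod1, an actin-capping protein, at 12.8, 17.0 and 13.5, and Gypc, a glycophorin, at 10.2, 16.7 and 15.9. The highest log2 ratio of the list in either comparison, named after its values were seen, was that of the anion exchanger Slc4a1, at 1.01, 54.2 and 40.5 FPKM.

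Of 8 heme synthesis genes, 4 were higher in Dspp+/- and 2 in Dspp-/-, with medians of 0.95 and 0.77. Alas2, the erythroid form of the first and rate-limiting enzyme, stood at 7.48, 43.2 and 41.3 FPKM, 5.78 times WT in Dspp+/- (5.17 to 6.47), beyond the ratio of any of the 4 adult globin genes there. Urod, which acts midway in the pathway in all tissues, stood at 12.4, 19.3 and 14.7 FPKM, and Fech, which inserts the iron, at 7.05, 11.9 and 12.04.

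Of 9 genes of iron uptake and mitochondrial iron transport, 3 and 2 were higher, with medians of 0.53 and 0.41. Tfrc, the transferrin receptor of all dividing cells, stood at 48.5, 41.9 and 65.0 FPKM and was lowest in Dspp+/-. Steap3, an endosomal iron reductase, stood at 8.69, 8.89 and 10.9 FPKM.

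Of 15 genes of late red-cell maturation and antioxidant defense, 5 and 4 were higher, with medians of 0.77 and 0.57. Cat, which encodes catalase, stood at 41.2, 78.1 and 61.5 FPKM, Prdx2, a peroxiredoxin abundant in red cells, at 36.5, 50.4 and 40.8, and Bnip3l, which clears mitochondria, at 27.3, 29.0 and 32.9. Genes of hemoglobin and heme scavenging and iron storage had 1 of 8 compared higher in each library and medians of 0.19 and 0.36. Of these the ferritin chains stood at 319, 391 and 359 FPKM (Fth1) and 266, 227 and 154 FPKM (Ftl1).

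**Figure D5:**
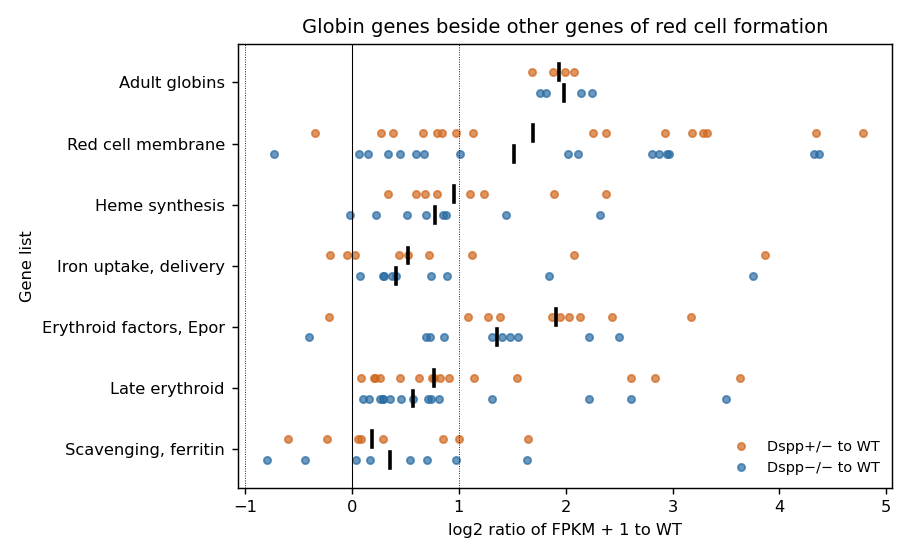
Log2 ratio to WT of FPKM + 1 for the genes of each list, 1 point per gene, in Dspp+/- and Dspp-/-, with a bar at the list median and dotted lines at 2-fold. The medians of the 5 erythroid lists lie between 0.41 and 1.91. The adult globin genes lie closer together than any of these lists, but they are fewer and the copies of each chain share sequence.

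Most compared markers of neutrophils, platelets and B cells were past 2-fold higher in both mutant libraries, as the globin genes were. Those of the other cell types were not. Sums below run over every listed gene in the table, and counts over those that passed the filter on low levels. All 10 neutrophil genes were past 2-fold higher in both mutant libraries, and their summed level went from 603 FPKM in WT to 2707 and 3558. Elane, Mpo, Prtn3 and Ctsg were highest in Dspp+/-, and the other listed neutrophil genes in Dspp-/-. The 5 of 6 platelet genes compared were all higher, and the list had sums of 23.3, 125 and 136 FPKM. Of the B-cell genes compared, 5 of 6 were higher in each, and their list had sums of 17.6, 61.9 and 45.6 FPKM. The B-cell exception, Vpreb1, stood at 1.40, 0.565 and 1.46 FPKM. Osteoblast genes were lower, 7 of 8 in Dspp+/- and 2 in Dspp-/-, with sums of 13418, 3565 and 7149 FPKM, and 6 of 7 chondrocyte genes compared were lower in each, and their list had sums of 1610, 448 and 704 FPKM. None of 6 endothelial genes was past 2-fold, with sums of 114, 135 and 131 FPKM. Of 6 skeletal muscle genes compared, 2 were lower in Dspp+/- and none in Dspp-/-; their list summed to 8704, 11880 and 10091 FPKM, with Tnnc2 listed at 0 in WT and Dspp-/-. Mitochondrially encoded genes took 25.0%, 36.9% and 37.3% of the summed FPKM. Xist, transcribed from the inactive X chromosome of females, had 2 fragments in WT against 12084 and 10563, so the pools differ in sex, which cannot be told apart from genotype. The part of marrow, blood, muscle or sex in the globin difference was not tested.

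The genes whose pair of log2 ratios lay nearest to that of the summed globin level (2.02 and 1.98) were sought among the 4035 genes that averaged 10 FPKM or more, by the distance in these log2 units over the 2 ratios. They were Arhgdib, a GTPase regulator of blood cells (distance 0.087), Hmgb2, a chromatin protein of dividing cells (0.099), Alox5ap, which serves leukotriene synthesis in leukocytes (0.103), Coro1a, an actin-binding protein of leukocytes (0.122), and Gm4739 (0.139). Arhgdib stood at 13.9, 56.1 and 56.9 FPKM and Coro1a at 10.4, 48.0 and 41.3 FPKM. With 3 libraries such likeness rests on 2 numbers per gene.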

How the data were processed

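Poly(A)-selected RNA, fragmented to about 200 bases, was sequenced as 150-base pairs. The submitters' processing notes list FastQC 0.11.5, HISAT2 2.1.0, StringTie 1.3.3b, DESeq 1.28.0 and the build hg38, a human build, without roles; the aligner settings, the annotation and the handling of reads matching several copies are not given in the sources used here. The authors deposited 1 value per gene and genotype, normalized to fragments per kilobase and library total (FPKM) as far as the values show, since the table names no unit. The values fitted FPKM: multiplied by the GENCODE M21 merged exon length (26641 of 26970 genes) and by 1 library total, they gave whole fragments within 0.05 for 98.6%, 98.7% and 98.6% of genes with low levels in WT, Dspp+/- and Dspp-/-. One fragment in 1 kb was worth 0.0494, 0.0423 and 0.0449 FPKM.

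From these fragments, exact Poisson intervals were computed for levels, Clopper-Pearson intervals for ratios between libraries and for shares, and exact conditional intervals for ratios of ratios. Genes averaging 1 FPKM or more over the libraries were compared on log2(FPKM + 1) with a limit of 2-fold. No count model was run, since each genotype had 1 library. In each list the 3 genes most abundant in WT were named, apart from genes stated as chosen after their values were seen and from items that are not reported here. The members, lists and alternatives were chosen with earlier results of these data known. Promoters were taken from RefSeq (GRCm38.p6, 4 of 4 matched) and coding sequences from GENCODE M21 transcripts. On simulated data for Dspp+/- against WT over 26641 genes, 100% of 200 genes changed 4-fold were found, 7 of 12801 unchanged genes were called, and 95.0% of intervals held the true fold. The simulated counts had Poisson error only, and no low gene was among those changed. The simulation therefore checks the computation and says nothing about the spread between animals or libraries. Scripts ran on Python 3.11.15 with scipy 1.17.1, pandas 2.3.3, matplotlib 3.10.9 and numpy 2.4.6.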

Additional observations from a re-analysis of the deposited data

How the results depend on the processing

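No paired analysis was possible because each genotype had 1 library, and no replicate could be left out. Of 176 values recomputed, 94 stayed within their interval or within 1.5 times the count, 79 moved and 3 turned. Those that turned were alpha to beta balances with a main interval below 1 that passed above 1. They were Dspp+/- with RefSeq lengths (1.11), and Dspp+/- (1.97) and Dspp-/- (1.68) for Hba-a2 over Hbb-bt. The WT balance, whose main interval held 1, was counted as moved where it passed above 1. It did so as fragments, with RefSeq lengths and for Hba-a2 over Hbb-bt. The log2 ratios of the members to WT ranged from 1.46 to 2.33 over the alternatives, and 4 of 4 members were past 2-fold under every scaling. For the summed globin level, the log2 ratio in Dspp+/- and Dspp-/- was 1.94 and 1.95 with median-ratio scaling, 2.04 and 2.06 without mitochondrial genes, 1.82 and 1.81 without globin, immunoglobulin and muscle genes, and 1.80 and 1.80 as TPM. The alpha to beta balance in WT, Dspp+/- and Dspp-/- was 1.04, 0.969 and 0.796 as fragments, 0.930, 0.879 and 0.712 for Hba-a1 over Hbb-bs, and in WT 2.31 for Hba-a2 over Hbb-bt. With lengths chosen after seeing the data it was 1.19, 1.11 and 0.909 (RefSeq) and 0.962, 0.893 and 0.738 (coding transcript). Of all genes, 636 were higher in Dspp+/-, against 281 where a mean of 5 FPKM was asked, 1501 at 1.5-fold, 124 at 4-fold, and 971 and 185 with pseudocounts of 0.1 and 5. The 373 lower became 1166 at 1.5-fold, 24 at 4-fold, 605 and 156 with these pseudocounts, 571 without globin, immunoglobulin and muscle genes, and 590 as TPM. In Dspp-/-, the 527 higher became 228 at a mean of 5 FPKM, 1152, 103, 836 and 136 under the same fold limits and pseudocounts, and the 179 lower became 110, 1070, 6, 363 and 45, then 310 without those genes and 323 as TPM. These 2 scalings moved the median log2 ratio of all genes to -0.10 and -0.13 and to -0.12 and -0.14 in Dspp+/- and Dspp-/-, and the percentage of calls that were higher from 63.0 and 74.6 to 43.9 and 57.0 and to 42.2 and 55.8. With a pseudocount of 5, the 30 and 23 erythroid list genes past 2-fold became 15 and 14.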

Other observations

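The ratio of globin RNA to the RNA of other red-cell genes differed between the 3 libraries by varying amounts. The summed level of the 4 adult globin genes was 886 times that of Slc4a1 in WT, against 66.9 times in Dspp+/- and 87.1 times in Dspp-/-. The counting interval from the 100 Slc4a1 fragments in WT ran from 728 to 1089. Over Klf1, an erythroid transcription factor, the ratio was 3086, 341 and 560 times; Klf1 had 9 fragments in WT, so that the WT value is known only between 1626 and 6750, while the mutant intervals reached 378 and 643. Over Alas2 the values lay closer together, at 119.5 (107.9 to 133), 83.8 (80.6 to 87.2) and 85.3 (81.8 to 88.9) times. These 3 ratios were highest in WT, and Slc4a1 and Klf1 were chosen after their values were seen. The intervals cover counting error of the named gene only, with 1 library per genotype. Over Aqp1, a channel of red cells and vessels, the ratio ran the other way, at 3.80, 12.8 and 13.5 times. Aqp1 was not alone in this. The median log2 ratio of the 5 erythroid lists together was 1.10 in Dspp+/- and 0.74 in Dspp-/-. Both lay below the 2.02 and 1.98 of the summed globin level, but the added 1 FPKM understates genes low in WT more than globin. By FPKM alone, Tmod1 and Gypc stood at 1.33 and 1.64 times WT in Dspp+/-, less than the 4.05 of summed globin. Dmtn, of the membrane and skeleton list, stood at 4.46 times there, with a log2 ratio of only 1.13. Listed genes thus lay on both sides of globin.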
